A study of Mus musculus with 8 samples.

Results

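The nuclear-encoded subunits of the mitochondrial respiratory chain and the ATP synthase were examined in sorted jejunal tuft cells of mice. Genes were taken by their symbols, namely those named Nduf followed by a, b, c, s or v and a digit, Ndufab1, the 4 Sdh genes, Cyc1, and every name that starts with Uqcr, Atp5 or Cox4 to Cox8, without the names that contain -ps. The rule found 90 of the 35199 genes in the deposited table: 41 for complex I, 4 for complex II, 9 for complex III, 19 for complex IV and 17 for complex V. Choosing by symbol does not use any measured value, but earlier results of these data were known when the members were chosen. The rule also takes in Ndufa4, whose protein sits in complex IV, the supercomplex factor Cox7a2l and the hypoxia-induced Ndufa4l2. These are counted here with the complex of their name. Of the 90, 4 are processed pseudogenes in the GENCODE M21 annotation (Ndufb4c, Cox6c2, Ndufa11b and Ndufs6b).

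The study asked how blocking muscarinic acetylcholine signaling changes tuft cells, the rare chemosensory cells of the intestinal epithelium. All 8 mice carried Dclk1-DTR-ZSgreen, a bacterial artificial chromosome transgene in which the regulatory region of Dclk1, a tuft cell gene, drives a diphtheria toxin receptor and the green fluorescent protein ZSgreen, on a C57BL/6J background. At 8 to 10 weeks of age, 4 mice received scopolamine, a nonselective muscarinic antagonist, at 0.5 mg per kg per day from an osmotic pump for 7 days, and 4 sham mice received sodium chloride. Live, EPC-high, ZSgreen-positive cells were sorted, 3000 cells for replicate 1 of each group and 4000 for every other mouse, and each mouse gave 1 library. The reporter marks cells by Dclk1 promoter activity, so the libraries describe the cells that the transgene labels. Sham replicates 1 and 3 were made from 200 pg of RNA with 15 amplification cycles, and the other 6 libraries from 1000 pg with 10 cycles.

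The inner mitochondrial membrane holds the respiratory chain. Complex I oxidizes NADH, complex II oxidizes succinate and is also an enzyme of the tricarboxylic acid cycle, complex III passes electrons to cytochrome c, and complex IV passes them to oxygen. The protons pumped by complexes I, III and IV drive the ATP synthase, complex V. All subunits of complex II are encoded in the nucleus, whereas the other 4 complexes are built from nuclear and mitochondrially encoded proteins, so their genes are read in separate compartments.

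The libraries held 14343362 to 20857433 estimated counts with scopolamine and 25769940 to 41428916 in sham, so every sham library was deeper. The tuft cell check list of 14 genes was detected in all libraries, and Dclk1 stood at 3434 to 5725 CPM, the gene's count scaled to a common library size with TMM factors, with scopolamine and 4086 to 5717 CPM in sham. Markers of other epithelial cells were present as well: the summed level of 12 enterocyte genes ranged from 3348 to 7172 CPM with scopolamine and from 2580 to 6715 CPM in sham, and the fitted log2 fold change was above 0 for all 12, with a median of 1.56. The 7 goblet genes summed to 676 to 3505 CPM against 333 to 1345 CPM, the 6 Paneth genes to 55.4 to 1395 CPM against 39.7 to 125 CPM, and the 10 enteroendocrine genes to 170 to 849 CPM against 13.5 to 777 CPM. Of these, 7 of 7, 6 of 6 and 9 of 10 genes were above 0, with median log2 fold changes of 1.17, 2.76 and 1.66. The median standard errors were 0.69, 1.16 and 1.61, and 1, 2 and 0 genes were higher at an unadjusted p under 0.05 (edgeR). Single libraries weighed heavily. The Paneth sum was 1395 CPM in scopolamine replicate 4 and 55.4 to 173 CPM in the other scopolamine libraries. The enteroendocrine sum was 777 CPM in sham replicate 3 and 13.5 to 35.7 CPM in the other sham libraries. The 5 erythrocyte genes stayed at or below 3.74 CPM in sum in each library. Lymphocyte genes (10) summed to 1.70 to 153 CPM, myeloid genes (7) to 7.07 to 32.9 CPM, fibroblast and endothelial genes (7) to at most 14.5 CPM and stem and crypt genes (7) to 187 to 334 CPM. The part of these other cells in the results below was not tested. In bulk libraries, fewer cells of a type and less RNA per cell cannot be told apart.

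Transcripts of the 90 genes made up 2.69 to 4.02% of the counts with scopolamine and 3.49 to 4.35% in sham. Of the 90 genes, 82 passed the filter on low counts: 39 of complex I, all 4 of complex II, all 9 of complex III, 13 of complex IV and all 17 of complex V. The other 8 were near or at 0. Cox4i2, Cox7b2, Cox8b and Cox8c had no count in any library, which at 3 counts allows a level of up to 0.0724 to 0.209 CPM of the library total, for counting error only. Cox6a2 had 7 counts over the 8 libraries, Cox6c2 had 7, Ndufa11b had 13 and Ndufs6b had 1.

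Divided by transcript length, the levels differed widely within each complex, although the complexes hold their subunits in fixed ratios. Complex IV genes led with Cox8a at 2687 CPM per kilobase, the mean over all 8 libraries, followed by Cox6c at 2481 and Cox6a1 at 2021 CPM per kilobase. Among complex V genes, Atp5e, the epsilon subunit of the rotary head, had 1606 CPM per kilobase, Atp5b, its catalytic beta subunit, 1321, and Atp5g3, which encodes the subunit of the proton-carrying ring, 1220. Small accessory subunits also led complex III, with Uqcrq at 1698, Uqcr10 at 1316 and Uqcr11 at 1247 CPM per kilobase, above Uqcrc1, a core protein, at 475. Complex I genes were lower, with Ndufa1 at 825, Ndufb9 at 778 and Ndufb7 at 711 CPM per kilobase and a median of 279 over the 39 genes tested. The median of the 4 complex II genes was 196 CPM per kilobase, from Sdhc at 52.1 to Sdhb at 394.

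**Figure D1:**
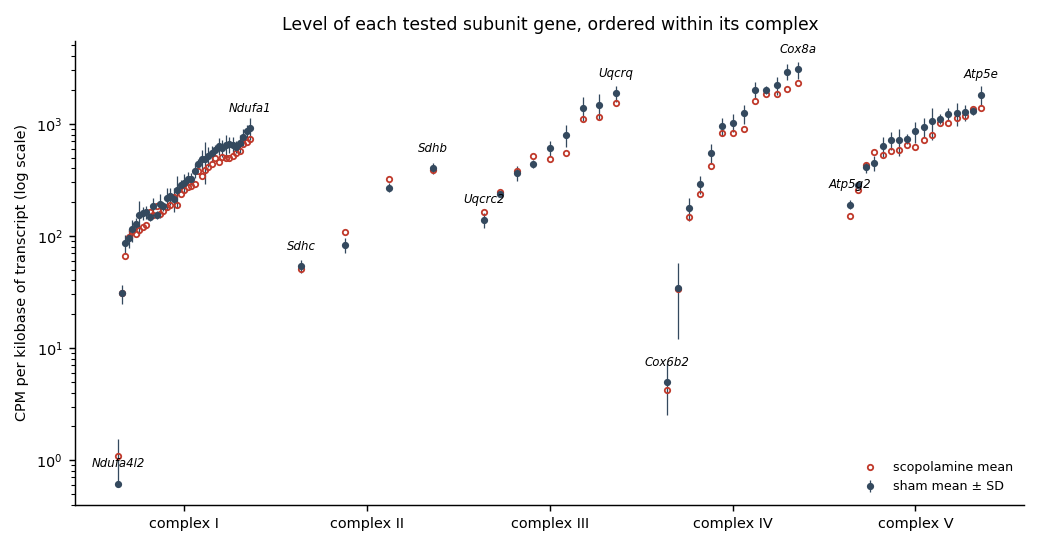
Level of each of the 82 tested genes in CPM per kilobase of transcript (log scale), ordered within its complex; filled points are the sham mean with the SD over 4 mice (no lower arm where the SD exceeds the mean) and open points the scopolamine mean. Cox8a is the highest of the 82 and Ndufa4l2 the lowest, and in most genes the open point lies close to or below the filled one.

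Paralogous isoforms mostly differed widely in level, and several were near 0. Cox4i1, the largest nuclear subunit of complex IV, measured 1339 to 1447 CPM with scopolamine and 1325 to 1636 CPM in sham, while its paralog Cox4i2 had no count. Cox6a1 measured 837 to 1608 CPM over the 8 libraries, against at most 0.236 CPM for the heart and muscle form Cox6a2. Cox6b1 measured 753 to 1535 CPM, against 0.468 to 3.97 CPM for the testis form Cox6b2. Cox7a2 measured 412 to 853 CPM, Cox7a2l 131 to 231 CPM and Cox7a1, the heart and muscle form, 5.61 to 25.6 CPM. For subunit 8, Cox8a measured 1058 to 2102 CPM while Cox8b and Cox8c had no count, and Cox7b measured 157 to 369 CPM while Cox7b2 had none. Each library thus showed the ubiquitous form of these complex IV subunits far above the tissue-restricted one. Ndufa4 measured 183 to 526 CPM, against 0 to 1.83 CPM for Ndufa4l2. The 3 genes that encode the same ring subunit of the ATP synthase were all detected, Atp5g3 at 619 to 1111 CPM, Atp5g1 at 454 to 912 CPM and Atp5g2 at 39.9 to 92.5 CPM. Every 31-base word of the Atp5g2 transcript also occurs in another annotated gene, Gm10175, so its count may be split with that gene.

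Scopolamine was then compared with sham. No gene of the respiratory chain passed the threshold of an adjusted p under 0.1 (edgeR quasi-likelihood test with Benjamini-Hochberg adjustment over 12849 genes), where the smallest adjusted p among the 82 was 0.812. The same test called 0 of all genes (0%). DESeq2 called 28 of 12761 genes (0.219%) and none of the 82, with a smallest adjusted p of 0.447, and limma-voom called none. At an unadjusted p under 0.05, 8 of the 82 had lower levels with scopolamine, beside 2.66% of all genes, and 1 had a higher level, beside 3.33% of all genes. The 8 were the complex I genes Ndufs5, Ndufa7, Ndufa6, Ndufs4 and Ndufc2, Uqcrb of complex III, and Cox6c and Cox8a of complex IV. The 1 higher gene was Sdha of complex II. These calls were not stable. Of the 8 lower genes, Ndufs4 alone kept an unadjusted p under 0.05 without scopolamine replicate 3, without sham replicate 4 or with the letter of the mouse ID as a term, and Sdha lost it in the last 2 of these fits. That letter nearly follows the treatment, being M for 3 of 4 scopolamine mice and N for 3 of 4 sham mice.

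The fitted log2 fold changes were small and mostly of one sign. Of the 82 genes, 67 (81.7%) were below 0, beside 50.9% of all genes tested, and their median was -0.27, beside -0.01 for all genes. Complex IV had 13 of 13 genes below 0 with a median of -0.31, and complex I 33 of 39 with -0.27. Complex V had 14 of 17 with -0.25, and complex III 5 of 9 with -0.29. Without scopolamine replicate 3 and sham replicate 4, complex IV had 9 of 13 with -0.05 and complex I 22 of 39 with -0.03. In that fit complex V had 8 of 17 with 0.0051 and complex III 3 of 9 with 0.06. Complex II had 2 of 4 below 0 and a median of 0.10, which turned to 3 of 4 and -0.07 without scopolamine replicate 4. Differences between the complexes were not tested. The median standard error of the 82 values was 0.19. With the letter of the mouse ID as a term in the fit, 65 of the 82 genes were below 0, with the amplification cycles as a term 68, and without the sham libraries made from 200 pg 70.

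**Figure D2:**
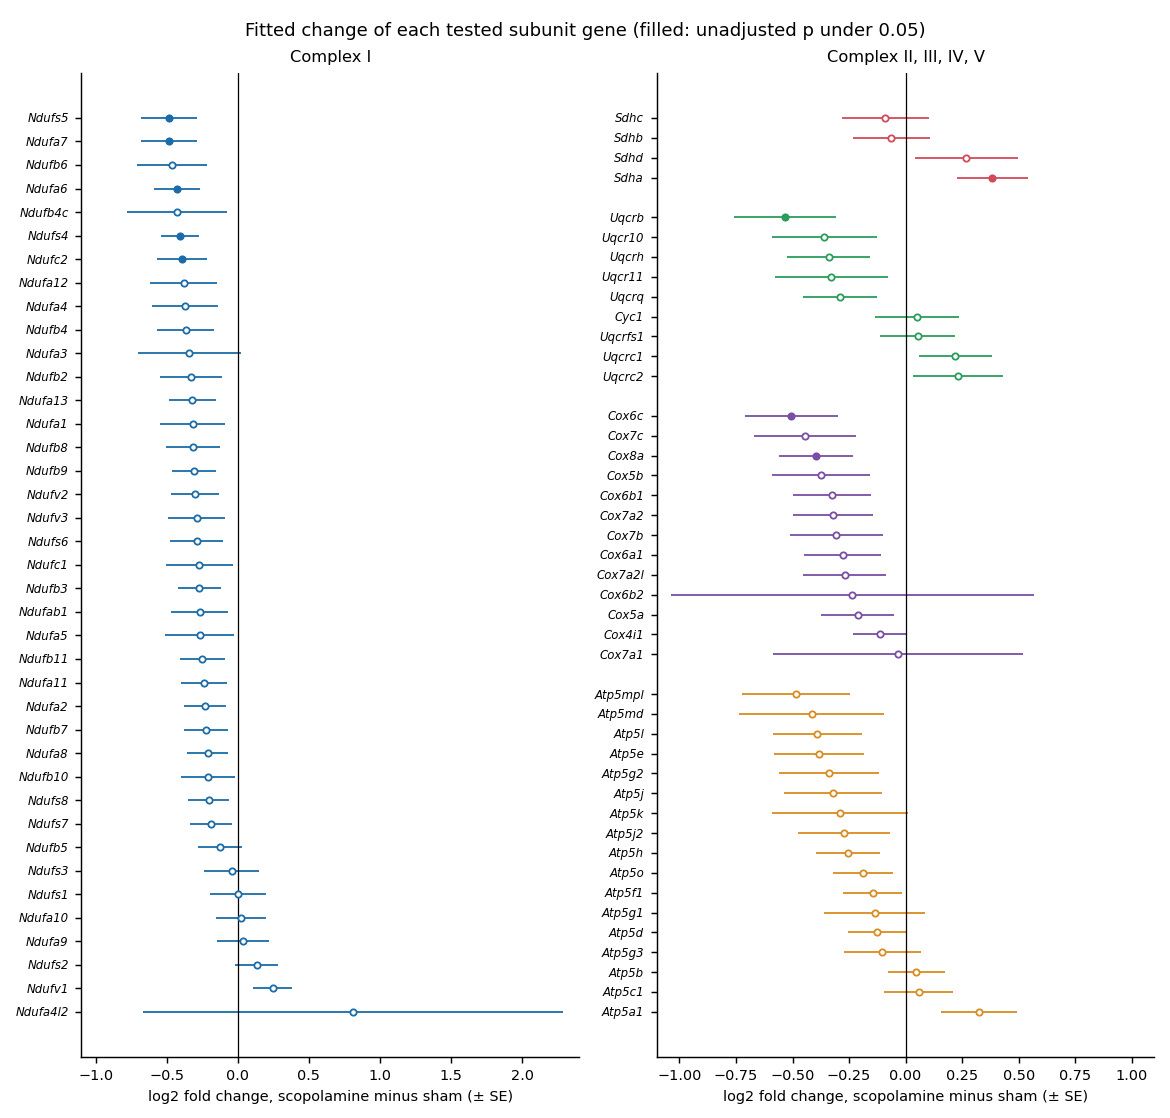
Fitted log2 fold change of each of the 82 genes, scopolamine minus sham, with its standard error; filled points had an unadjusted p under 0.05 and no gene passed the adjusted threshold. Points of complexes I, IV and V lie mostly left of 0, complex II and III on both sides, and Ndufa4l2 and Cox6b2 have wide bars.

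The lower direction was most marked in 2 libraries. Scopolamine replicate 3, the shallowest library, held the lowest value of 59 of the 82 genes (72.0%), whereas it held the lowest value of 12.6% of all genes tested. Sham replicate 4 held the highest value of 59 of the 82 (72.0%), against 13.4% of all genes. The median deviation from a gene's own mean over the 8 libraries was -0.46 (log2) in scopolamine replicate 3 and 0.43 in sham replicate 4, and lay between -0.10 and 0.11 in the other 6 libraries. Leaving out scopolamine replicate 3 alone gave 62 of 82 genes below 0 (75.6%, beside 52.1% of all genes) and a median of -0.16, and leaving out sham replicate 4 alone gave 64 (78.0%, beside 51.0%) and -0.16. With both left out, 42 of the 82 genes (51.2%) were below 0, beside 49.5% of all genes, and their median was -0.0034. That alternative was chosen after seeing the data, and since the 2 libraries were picked as the extremes of these same genes, leaving out both had to make the difference smaller. Over all alternatives run, 49 of the 82 genes kept the sign of their log2 fold change, 42 below 0 and 7 above. Ndufa4l2, 1 of the 7, was not tested in the alternative that asked for at least 10 counts in every library. Scopolamine replicate 3 also had the highest summed glycolysis level, at 14269 CPM against 8814 to 11107 CPM elsewhere, and the highest summed level of the tuft genes, at 26274 CPM against 14895 to 22905 CPM. Sham replicate 4 lay within the range of the other libraries in both lists. The 2 libraries were made from 1000 pg of RNA from 4000 cells.

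**Figure D3:**
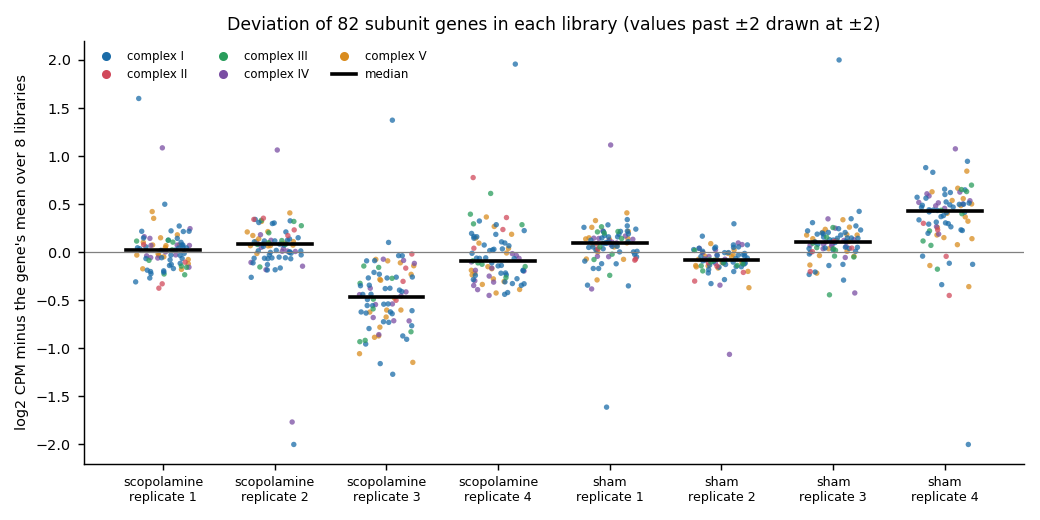
Deviation of each of the 82 genes in each library from the gene's mean over 8 libraries (log2 CPM), colored by complex, with the median as a bar. The cloud lies below 0 in scopolamine replicate 3 (median -0.46), above 0 in sham replicate 4 (median 0.43) and near 0 in the other 6 libraries.

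Summed over all 90 genes, the level was 36168, 38146, 27222 and 35222 CPM in scopolamine replicates 1 to 4 and 38165, 34261, 38199 and 45938 CPM in sham replicates 1 to 4. The scopolamine mean of 34190 ± 4802 CPM (SD, n = 4) and the sham mean of 39140 ± 4894 CPM (SD, n = 4) differed by about 1 SD, and the groups overlapped. Complex I summed to 9330 ± 1310 CPM with scopolamine and 11123 ± 1583 CPM in sham (SD, n = 4 each). Complex IV summed to 8065 ± 1266 against 10080 ± 1605 CPM, a ratio of means of 0.800, complex III to 4234 ± 805 against 4645 ± 644 CPM, and complex V to 11247 ± 1518 against 12090 ± 1064 CPM. Only complex II had the higher mean with scopolamine, 1314 ± 297 against 1203 ± 85.1 CPM, where scopolamine replicates 2 and 4 lay above all sham libraries and replicates 1 and 3 below all of them. In every one of the 5 sums the groups overlapped.

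**Figure D4:**
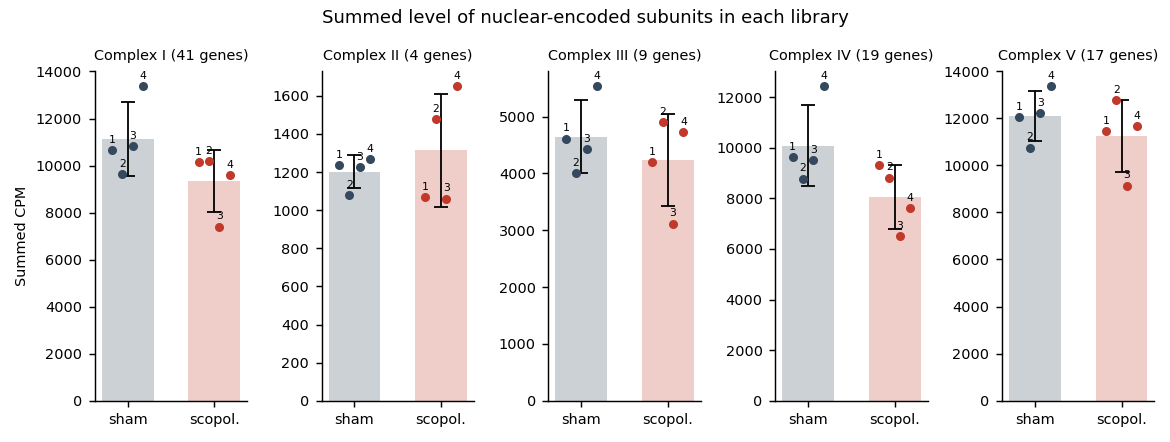
Summed CPM of the genes of each complex in each library; bars are group means, error bars the SD over 4 mice, and the numbers at the points are the replicates. Scopolamine replicate 3 is the lowest point and sham replicate 4 the highest of complexes I, III, IV and V, and complex II shows scopolamine replicates 2 and 4 on top.

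In complex I, the genes of the 7 nuclear core subunits, which carry the cofactors and the quinone site, were distinguished from the accessory subunits. The core genes had a median log2 fold change of -0.04, with 4 of 7 below 0, and the other 32 tested genes had a median of -0.30, with 29 below 0, a difference that was not tested. Ndufv1, which binds NADH, measured 273, 354, 300 and 294 CPM with scopolamine and 248, 287, 238 and 256 CPM in sham, and 3 of the 4 scopolamine libraries exceeded every sham library. Its log2 fold change was 0.25 (SE 0.14, edgeR adjusted p = 0.815). Ndufs1, the largest iron-sulfur subunit, measured 65.0 to 96.8 CPM with scopolamine and 62.1 to 96.3 CPM in sham.

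Ndufs4, an accessory subunit of the NADH-oxidizing arm whose loss causes a mitochondrial encephalopathy in mice, lies at chr13:114287795-114388258 on the minus strand of GRCm38. It measured 215, 207, 203 and 194 CPM with scopolamine and 263, 234, 270 and 319 CPM in sham. All 4 scopolamine values lay below all 4 sham values, and the log2 fold change was -0.41 (SE 0.14, edgeR adjusted p = 0.812). Its unadjusted p of 0.0132 was 0.0716 without scopolamine replicate 3 and sham replicate 4. Ndufb9, an accessory subunit of the membrane arm at chr15:58933756-58939488 on the plus strand, was the only other member whose groups did not overlap. It measured 561, 519, 384 and 491 CPM with scopolamine and 561, 570, 572 and 723 CPM in sham. The gap between its groups was small, because scopolamine replicate 1 and sham replicate 1 were both at 561 CPM after rounding. These 2 of 82 genes (2.44%) stand beside 1.95% of all genes tested, and no member lay wholly above sham, beside 1.92% of all genes. Both genes reach the smallest exact two-sided permutation p that 4 against 4 allows, 0.0286, as any pair of groups without overlap does.

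The remaining complex I genes named by p or level were lower on average and overlapped. Ndufa6, an accessory subunit, measured 351, 293, 253 and 262 CPM with scopolamine and 347, 330, 412 and 469 CPM in sham. Its log2 fold change was -0.43 (SE 0.16, edgeR adjusted p = 0.812). Ndufa1 measured 203 to 390 CPM against 305 to 495 CPM, and Ndufb7 366 to 456 CPM against 377 to 555 CPM. Ndufa4 had 183 CPM in scopolamine replicate 3 against 333 to 356 CPM in the other scopolamine libraries. The log2 fold change of Ndufa4 was -0.37 (SE 0.23) and turned to 0.01 without scopolamine replicate 3 and sham replicate 4. Ndufb4 and its pseudogene copy Ndufb4c, all of whose 31-base words occur in Ndufb4, had log2 fold changes of -0.37 and -0.43, and their counts may be shared.

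In complex II, Sdha, the flavoprotein that oxidizes succinate, lies at chr13:74322254-74350280 on the minus strand. It measured 289, 350, 270 and 352 CPM with scopolamine and 291, 237, 238 and 201 CPM in sham. Sham replicate 1 lay above scopolamine replicates 1 and 3, so the groups overlapped. The log2 fold change of Sdha was 0.38 (SE 0.16, edgeR adjusted p = 0.812) and ranged from 0.30 to 0.47 when single mice were left out. Its unadjusted p of 0.0347 rose to 0.0818 with the letter of the mouse ID as a term, and was also over 0.05 without scopolamine replicate 2 or 4 or without sham replicate 2, 3 or 4. Without scopolamine replicate 3 and sham replicate 4 together it was 0.0397. Sdhb, the iron-sulfur subunit, measured 354 to 523 CPM with scopolamine and 402 to 522 CPM in sham (log2 fold change -0.06, SE 0.17). Of the membrane anchors, Sdhc measured 115 to 206 CPM against 151 to 201 CPM, and Sdhd 274, 400, 316 and 607 CPM against 338, 288, 356 and 344 CPM. The high mean of Sdhd came from scopolamine replicate 4, since its log2 fold change of 0.27 (SE 0.23) was -0.02 without that mouse.

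In complex III, the 5 small accessory genes were all below 0, led by Uqcrb with 374, 313, 184 and 314 CPM under scopolamine and 384, 353, 416 and 565 CPM in sham. The log2 fold change of Uqcrb was -0.53 (SE 0.23, edgeR adjusted p = 0.812), the most negative of the 82, and -0.18 without scopolamine replicate 3 and sham replicate 4. Uqcr10, Uqcrh, Uqcr11 and Uqcrq had log2 fold changes of -0.36, -0.34, -0.33 and -0.29. Without scopolamine replicate 3 and sham replicate 4, Uqcr10 and Uqcr11 were above 0 and the median of the complex was 0.06. The 4 longer genes were all above 0, and Cyc1 and Uqcrfs1 changed sign under 5 and 2 alternatives. Cyc1, cytochrome c1, measured 473, 696, 442 and 675 CPM with scopolamine and 468, 501, 590 and 645 CPM in sham, a log2 fold change of 0.05 (SE 0.19). Uqcrfs1, the Rieske iron-sulfur protein, had 0.05 as well, and the core proteins Uqcrc1 and Uqcrc2 had 0.22 and 0.23. None of these 9 genes separated the groups.

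In complex IV, Cox6c measured 1429, 1063, 753 and 883 CPM with scopolamine and 1324, 1289, 1434 and 1809 CPM in sham. Scopolamine replicate 1 lay within the sham range and the other 3 below it. The log2 fold change of Cox6c was -0.50 (SE 0.20, edgeR adjusted p = 0.812), and -0.24 without scopolamine replicate 3 and sham replicate 4. Cox8a measured 1523, 1347, 1058 and 1181 CPM with scopolamine and 1550, 1475, 1588 and 2102 CPM in sham, a log2 fold change of -0.39 (SE 0.16, edgeR adjusted p = 0.812). Here too only scopolamine replicate 1 reached the sham range. Cox4i1 differed least among the abundant genes of this complex, with a log2 fold change of -0.11 (SE 0.12). The low forms Cox6b2 and Cox7a1 had wide errors, at -0.24 (SE 0.80) and -0.03 (SE 0.55), and Cox7a1 was high in 1 library of each group, 24.6 CPM in scopolamine replicate 2 and 25.6 CPM in sham replicate 1.

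In complex V, Atp5b measured 2322, 2780, 2397 and 2795 CPM with scopolamine and 2403, 2516, 2748 and 2293 CPM in sham, a log2 fold change of 0.05 (SE 0.13). Atp5a1, the alpha subunit that forms the head with Atp5b, measured 1190, 1633, 1155 and 1586 CPM against 1354, 1071, 1058 and 960 CPM, a log2 fold change of 0.32 (SE 0.17). Scopolamine replicates 2 and 4 exceeded every sham library, as they did for the complex II sum. The lowest p values of complex V belonged to Atp5mpl, a small membrane-sector protein, and Atp5l, subunit g. Atp5mpl measured 288, 277, 141 and 199 CPM with scopolamine and 326, 241, 295 and 402 CPM in sham (log2 fold change -0.48, SE 0.24). Atp5l measured 463, 461, 276 and 363 CPM against 461, 433, 508 and 647 CPM (log2 fold change -0.39, SE 0.20). Without scopolamine replicate 3 the log2 fold changes of Atp5mpl and Atp5l were -0.31 and -0.26. The ring genes Atp5g1, Atp5g2 and Atp5g3 had log2 fold changes of -0.14, -0.34 and -0.10, all with overlapping groups, which became 0.0093, -0.16 and 0.02 without scopolamine replicate 3.

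The log2 fold changes were also set beside transcript length. Of the 54 tested members with a transcript under 1000 bases, 53 were below 0, with Ndufa4l2 as the exception, and their median was -0.31. Of the 28 members with 1000 bases or more, 14 were below 0 and 14 above, with a median of -0.02. Single mice moved these values: 22 of the 28 were below 0 without scopolamine replicate 4 (median -0.09) and 19 without scopolamine replicate 2 or sham replicate 1 (medians -0.10 and -0.09), and the median of the shorter members was -0.19 without scopolamine replicate 3 and -0.18 without sham replicate 4. Among all genes tested, 69.4% of the 1219 with a transcript under 1000 bases were below 0 (median -0.24), against 49.0% of the 11566 longer ones (median 0.01). The length limit was chosen after the values were seen and was not tested. Across the 82 members, which share their libraries and are not independent, the log2 fold change correlated with log2 length at Pearson r = 0.61 and Spearman rho = 0.64, against 0.06 and 0.13 over the 12785 tested genes with a length. Within complexes the rho was 0.83 for complex V (n = 17), 0.73 for complex III (n = 9), 0.50 for complex I (n = 39), 0.07 for complex IV (n = 13), whose genes are almost all short, and -0.20 for complex II (n = 4). The pattern also appeared within single libraries: deviations from a gene's mean rose with length in scopolamine replicates 3 (rho = 0.61) and 4 (rho = 0.63) and fell with it in sham replicate 4 (rho = -0.67), scopolamine replicate 1 (rho = -0.52) and sham replicate 1 (rho = -0.44). Without scopolamine replicate 3 and sham replicate 4, 35 of the 54 short and 7 of the 28 long members were below 0, and the rho was 0.34. Of all tested genes under 1000 bases, 54.1% were then below 0 (median -0.04). The median of these genes was -0.15 without scopolamine replicate 3 alone and -0.14 without sham replicate 4 alone. What made short and long transcripts differ between libraries was not tested.

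**Figure D5:**
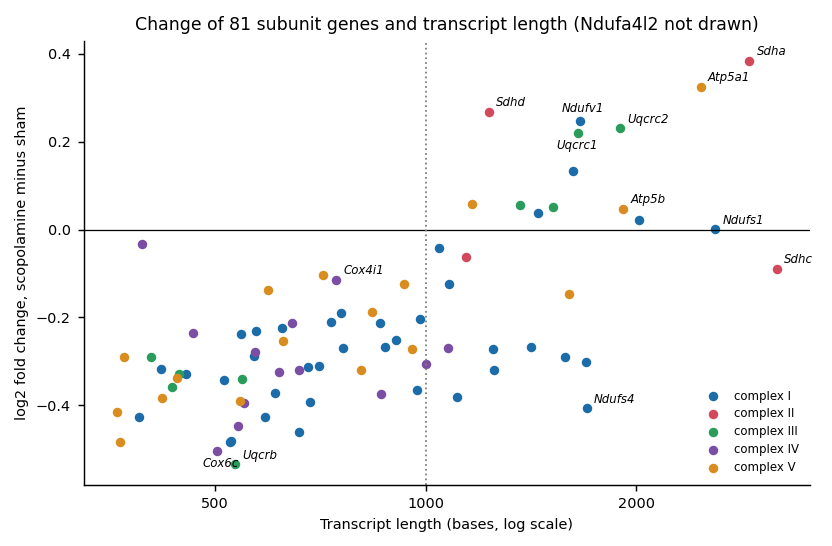
Fitted log2 fold change of 81 of the 82 genes, scopolamine minus sham, against transcript length in bases (log scale), colored by complex; Ndufa4l2, at 0.81 (SE 1.48), is not drawn. All points left of the dotted line at 1000 bases lie below 0, and the points above 0, Sdha and Atp5a1 highest, lie to its right.

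Genes that serve the chain gave the following counts, with 0 past the adjusted threshold in each list (edgeR). Over all genes tested, 50.9% were below 0, and at an unadjusted p under 0.05 2.66% were lower and 3.33% higher. Of 49 assembly factors, 36 were below 0 (median log2 fold change -0.20), and 6 had lower and 1 a higher level at an unadjusted p under 0.05. The 13 mitochondrially encoded subunits, partners of the nuclear ones in the same complexes, were all below 0 (median -0.35), with 4 at an unadjusted p under 0.05. Their summed level was 46928 to 62794 CPM with scopolamine and 50177 to 73752 CPM in sham, and without scopolamine replicate 3 and sham replicate 4 their median was -0.14, with 11 of 13 below 0. Of 79 tested mitochondrial ribosomal proteins, 61 were below 0 (median -0.19), and of 78 tested cytosolic ribosomal proteins, 73 were below 0 (median -0.23). Of the mitochondrial ribosomal proteins 4, and of the cytosolic ones 6, were lower at an unadjusted p under 0.05. Without the same 2 libraries, 38 of 79 and 38 of 78 were below 0, and without scopolamine replicate 3 alone 50 of 79 (median -0.07) and 61 of 78 (median -0.10). Without sham replicate 4 alone the cytosolic median was -0.15, and without sham replicate 3 alone the mitochondrial ribosomal median was -0.13. Of the 13 genes of the tricarboxylic acid cycle, 10 were above 0 (median 0.14) and 2 higher at an unadjusted p under 0.05. Without scopolamine replicate 3 and sham replicate 4, 11 were above 0, but without scopolamine replicate 2 or replicate 4 the count was 8, with medians of 0.05 in both fits, and without sham replicate 1 the median was 0.07. All 15 tested glycolysis genes were above 0 (median 0.31), with 2 at an unadjusted p under 0.05, and 12 were above 0 without the same 2 libraries. Without scopolamine replicate 3 alone 12 were above 0, with a median of 0.20. Of 11 tested genes of pyruvate entry, 7 were above 0 (median 0.10), and of 13 electron carriers and shuttles, 6 were above 0 (median -0.07).

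Among the electron carriers, Cycs, cytochrome c, measured 259 to 342 CPM with scopolamine and 310 to 437 CPM in sham (log2 fold change -0.37, SE 0.16, edgeR adjusted p = 0.812). Atpif1, the inhibitor of the ATP synthase, had a log2 fold change of -0.26 (SE 0.17), which ranged from -0.35 to -0.14 with single mice left out. The 13 regulators of mitochondrial biogenesis had a median of 0.09, with 7 above and 6 below 0. Ppargc1a, the coactivator PGC-1alpha that induces respiratory genes in other tissues, measured 3.05, 15.4, 5.36 and 8.13 CPM with scopolamine and 0.795, 1.41, 2.77 and 1.01 CPM in sham. All 4 scopolamine values lay above all 4 sham values, at 21 to 329 counts per library. The log2 fold change of Ppargc1a was 2.41 (SE 0.75, edgeR adjusted p = 0.812), and it ranged from 1.87 to 2.89 when single mice were left out. For Esrra, Nrf1, Gabpa and Tfam the groups overlapped. Esrra measured 71.8 to 111 CPM with scopolamine and 77.6 to 95.9 CPM in sham (log2 fold change 0.09, SE 0.18). Nrf1 measured 14.6 to 32.1 CPM against 8.50 to 19.5 CPM (log2 fold change 0.73, SE 0.37). Gabpa measured 4.51 to 16.4 CPM against 0 to 15.6 CPM (log2 fold change 0.31, SE 1.16). Tfam, the mitochondrial DNA packaging factor, measured at most 20.9 CPM against 10.2 to 23.8 CPM (log2 fold change -0.20, SE 0.38). Of the 14 tuft cell genes, 11 were below 0 (median -0.10), and 0 had an unadjusted p under 0.05. Trpm5 and Pou2f3 had log2 fold changes of 0.01 (SE 0.19) and -0.35 (SE 0.27). With single mice left out they ranged from -0.13 to 0.14 and from -0.50 to -0.12.

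The promoters of the members were searched for the motifs of factors known to bind respiratory genes. RefSeq promoters of the mouse build GRCm38.p6, 250 bases before to 50 after the start, matched 68 of the 90 genes with 73 promoters. Of the 71 promoters of tested members, 8 (11.3%) held the NRF1 motif GCGCATGCG on either strand, against 3.59% of the 12390 promoters of all tested genes. The ETS motif CCGGAAG, bound by GABPA, was in 17 (23.9%) against 17.4%, the YY1 motif AAGATGGCG in 7 (9.86%) against 3.0%, the CREB motif TGACGTCA in 4 (5.63%) against 3.04% and the TATA motif TATAAA in 7 (9.86%) against 7.74%. The ETS and YY1 motifs can overlap in the letters AAG, and the NRF1 motif nearly reads the same on both strands. Over these 71 promoters, in which a gene with a pair of promoters counts once for each, the median log2 fold change of the gene was -0.28 with an NRF1 motif and -0.27 without, and -0.32 with an ETS motif and -0.27 without. For YY1 these medians were -0.27 and -0.27, for CREB, with 4 promoters, -0.11 and -0.28, and for TATA, with 7, -0.39 and -0.27. The next lines give the sequence from 170 bases before to 30 after the start of 5 named members, read on the gene's strand, which is minus for all 5, with matched NRF1 and ETS motifs in capitals. Uqcr11 (chr10:80406792-80406991) and Cox6a1 (chr5:115348929-115349128) hold both motifs, Atp5g2 (chr15:102671018-102671217) the NRF1 motif, and Cox8a (chr19:7217587-7217786) and Sdhd (chr9:50603820-50604019) the ETS motif. They were chosen to set genes of high and low level side by side. All 5 hold a match, so they do not represent the 71 promoters, of which 8 held the NRF1 and 17 the ETS motif.
Uqcr11: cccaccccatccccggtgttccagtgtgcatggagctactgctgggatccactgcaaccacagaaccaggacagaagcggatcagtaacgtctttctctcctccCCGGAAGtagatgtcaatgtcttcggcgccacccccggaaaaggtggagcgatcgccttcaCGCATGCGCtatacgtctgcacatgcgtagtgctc
Cox6a1: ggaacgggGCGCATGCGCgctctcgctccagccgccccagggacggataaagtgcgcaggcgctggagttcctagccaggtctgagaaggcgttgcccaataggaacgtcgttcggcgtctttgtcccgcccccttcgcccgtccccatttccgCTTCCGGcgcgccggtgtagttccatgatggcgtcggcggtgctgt
Cox8a: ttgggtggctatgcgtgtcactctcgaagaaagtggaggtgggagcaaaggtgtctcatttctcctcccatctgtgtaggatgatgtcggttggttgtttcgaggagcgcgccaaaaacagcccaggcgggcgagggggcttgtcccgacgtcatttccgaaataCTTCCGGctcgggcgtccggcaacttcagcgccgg
Atp5g2: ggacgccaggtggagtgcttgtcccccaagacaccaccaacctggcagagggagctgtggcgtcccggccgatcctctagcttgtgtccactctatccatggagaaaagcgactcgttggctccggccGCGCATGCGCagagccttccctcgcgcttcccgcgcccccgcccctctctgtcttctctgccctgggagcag
Sdhd: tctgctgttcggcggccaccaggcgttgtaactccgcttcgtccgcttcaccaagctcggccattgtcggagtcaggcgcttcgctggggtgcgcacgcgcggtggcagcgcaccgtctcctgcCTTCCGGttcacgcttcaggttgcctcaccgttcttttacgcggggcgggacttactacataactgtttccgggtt
In Cox6a1 and Atp5g2 the capitals are 1 NRF1 match on each strand, offset by 1 base. Cox8a, the highest of all members per kilobase, and Sdhd carry the same ETS letters in these windows, and a second ETS match of Cox8a lies just past its window.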

How the data were processed

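Tuft cell RNA of 4 scopolamine and 4 sham mice was sequenced, 1 library per mouse. Per the methods of the study and the submitters' processing notes, the authors trimmed adaptors with bcl2fastq (2.20), pseudoaligned reads with kallisto (0.44.0) to the GRCm38 transcriptome and summed to genes. The deposited values are estimated counts, not normalized, and all were whole numbers. The annotation release and strand setting are not given in the sources used here. Pseudoalignment divides reads between genes of shared sequence, and 33 members share over 20% of their 31-base words with other genes. How far this moved their counts was not tested.

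Groups were taken from the treatment labels. Counts of all genes were fitted with the quasi-likelihood test of edgeR (4.0.16, R 4.3.3) after its filter by expression (12849 of 35199 genes kept, 21805 with a count) and TMM scaling, with Benjamini-Hochberg adjustment and a threshold of 0.1. Log2 CPM used a prior count of 2. The code was tested on simulated data. DESeq2 (1.42.0) and voom weights in limma (3.58.1) were run beside it, as were other scalings, filters and covariates and fits without single libraries. Transcript lengths and coordinates are from GENCODE M21, using 1 principal transcript per gene.

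Members and gene lists were chosen with earlier results of these data known. Named were, per complex, the 3 members of highest level per kilobase and the 2 of smallest p, isoform paralogs, the Sdh genes and Cyc1, members whose groups did not overlap, those below the filter, and a few regulators and markers. Ndufv1, Ndufs1, Uqcrc1, Uqcrc2, Uqcrfs1, Atp5a1, Ndufb4, Ndufb4c, and the members Ndufs5, Ndufa7 and Ndufc2 were named after their values were seen.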

Additional observations from a re-analysis of the deposited data

Results flagged for a closer look

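In 88 groups of 4 libraries checked for a library far from the other 3, 9 stood out. The limit is one that chance passes about 1 in 20 times for a single group. The count cannot be set against that rate, because the members share their libraries. In addition, a group with 3 libraries at 0 and 1 above 0 stands out by construction (Cox6a2, Cox6c2 and Ndufs6b). Among abundant members, scopolamine replicate 3 was low for Atp5g2 (39.9 CPM against 72.3 to 77.8 CPM in the other scopolamine libraries), Atp5g3 (619 CPM against 903 to 919 CPM) and Ndufa4 (183 CPM against 333 to 356 CPM). Sham replicate 4 was high for Ndufb9 (723 CPM against 561 to 572 CPM). Scopolamine replicate 2 was high for Cox7a1 (24.6 CPM against 8.75 to 10.5 CPM). The others were genes near 0, where a few counts in 1 library set the value: Cox6a2 at 0.236 CPM in scopolamine replicate 4, Cox6c2 at 0.0936 CPM in scopolamine replicate 2, Ndufa11b at 0.179 CPM and Ndufs6b at 0.0298 CPM in sham replicate 4.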

How the results depend on the processing

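No member passed the adjusted threshold under any alternative run, and 33 of the 82 tested members changed the sign of their log2 fold change under 1 or more of the 19 alternatives. With single mice left out, members higher at an unadjusted p under 0.05 numbered 0 to 2 (1 with all mice), members lower 1 to 12 (8 with all mice, 1 each without scopolamine replicate 3 or sham replicate 4), members wholly above sham 0 to 2 and members wholly below sham 1 to 14, beside 1.61 to 5.25%, 1.72 to 3.85%, 2.83 to 4.98% and 2.88 to 5.14% of all genes, in that order. DESeq2 gave 2 higher members (4.73% of all genes). With the letter of the mouse ID as a term, 0 were higher and 1 lower (3.28% and 2.02% of all genes). Without the sham libraries made from 200 pg, 3 were lower at an unadjusted p under 0.05, 2 lay wholly above and 5 wholly below sham, beside 2.60%, 8.44% and 9.27% of all genes. DESeq2 size factors left 1 member wholly below sham, and so did omitting the filter (1.67% and 1.49% of all genes). Of alternatives chosen after seeing the data, leaving out scopolamine replicate 3 with the 200 pg sham libraries gave 2 higher and 0 lower at an unadjusted p under 0.05, 4 wholly above and 4 wholly below, beside 6.02%, 2.17%, 12.3% and 12.2% of all genes. Leaving out scopolamine replicate 3 with sham replicate 4 gave 1 higher (Sdha), 0 lower, 3 wholly above and 1 wholly below (2.50%, 1.53%, 5.63% and 4.74% of all genes), and median log2 fold changes of -0.0034 for all members, -0.0317 for complex I, 0.2739 for complex II, 0.0598 for complex III, -0.0485 for complex IV and 0.0051 for complex V. When single mice were left out, the median ranged from -0.3469 to -0.1583 for all members, -0.3635 to -0.1629 for complex I, -0.3825 to -0.1376 for complex III, -0.4209 to -0.1740 for complex IV and -0.34 to -0.1381 for complex V, while that of complex II ran from -0.0712 without scopolamine replicate 4 to 0.2177. The cause of these shifts was not tested. No paired analysis was possible because the replicate numbers only name mice. With 4 mice a group the p-values measure the spread between these mice.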
